A study of Homo sapiens with 4 samples.

Results

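Open chromatin at the genes of 3 nectins (NECTIN1, NECTIN2 and NECTIN3), of the related receptor PVR and of the nectin-binding scaffold afadin (AFDN) was examined in 4 human cancer cell lines. The members were the peaks whose summit lay in 1 of 5 hg19 windows: NECTIN1 at chromosome 11, 119.49 to 119.62 Mb, NECTIN2 at chromosome 19, 45.33 to 45.41 Mb, NECTIN3 at chromosome 3, 110.77 to 110.93 Mb, PVR at chromosome 19, 45.13 to 45.19 Mb, and AFDN at chromosome 6, 168.2 to 168.39 Mb. They numbered 118 of the 295586 peaks in the 4 lists, and formed 61 of 167619 merged regions. ATAC-seq, in which a transposase inserts adapters into accessible DNA, gave 1 library for each line. The established lines SKBR3 and T47D come from breast cancer, and the established lines HCT116 and RKO from colorectal cancer, per the labels. All 4 carry the genotype label WT, with no treatment named. The culture medium was McCoy's 5A for SKBR3, RPMI for T47D, McCoy's 5A again for HCT116 and DMEM for RKO, so it did not follow the tissue. The series concerns transcriptional control of PVRL4 (NECTIN4), which is not a member here.

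Nectins are cell adhesion molecules of the immunoglobulin superfamily that join neighbouring epithelial cells by binding each other across the contact. Their cytoplasmic tails bind afadin, an actin-binding scaffold that ties nectins to the cytoskeleton and to the cadherin-based adherens junction. PVR (CD155) and nectin-2 (CD112) are also ligands that lymphocytes read through the activating receptor CD226 and the inhibitory receptors TIGIT and PVRIG.

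Each line had a single library, so no difference between lines could be tested, and each statement below describes these libraries. With 1 tag kept per position, SKBR3 had 4313512 tags, T47D 5450100, HCT116 1057628 and RKO 3262240. Pileup, the number of extended tags stacked at a peak's summit, and fold enrichment over the local background are the authors' values. Pileup was not scaled between libraries, so each peak is given with its percentile: the share of peaks in its own line's list that ranked below it by pileup, with ties at their middle rank. The SKBR3 list held 111635 peaks, that of T47D 77458, that of HCT116 39899 and that of RKO 66594, and a longer list reaches further down to weak peaks, which raises the percentile of a given peak. Percentiles in lists cut by q to the 39899 strongest peaks are therefore given beside the start regions. Gene starts were set by hand to the nearest 10 kb, since no hg19 annotation was used here, and a region within 5 kb of that position is described as near the start. Among genes used to check the tissue labels, with hand-set windows, the breast luminal factor FOXA1 had its highest peak at percentile 95.8 in SKBR3 and 89.5 in T47D, against 59.3 in RKO and no peak in HCT116. By number of peaks RKO was not below SKBR3, with 7 in RKO, 4 in SKBR3 and 9 in T47D. GATA3, another luminal factor, reached 88.4 in SKBR3 and 95.3 in T47D, against 65.5 in HCT116 and 15.3 in RKO. The intestinal factor CDX2 reached 75.3 in RKO but only 41 in HCT116, against 36.6 in SKBR3 and 58.2 in T47D, so this marker did not set HCT116 apart. The epithelial marker EPCAM was called in every line, at percentiles from 38.5 in RKO to 93.4 in T47D.

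SKBR3 had 41 peaks in the 5 windows, T47D 37, HCT116 15 and RKO 25. Of the 61 merged regions SKBR3 called 41, T47D 35, HCT116 15 and RKO 24. Over all merged regions SKBR3 called 65.4%, T47D 45.3%, HCT116 22.7% and RKO 38.4%. The windows carried more calls per Mb than the genome in every line, as 66.1 against 38.4 in SKBR3, 59.7 against 26.6 in T47D, 24.2 against 13.7 in HCT116 and 40.3 against 22.9 in RKO. NECTIN3 had fewer calls per Mb than the whole list in all 4 lines, and AFDN had fewer in HCT116, with 10.5 against 13.7.

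**Figure D1:**
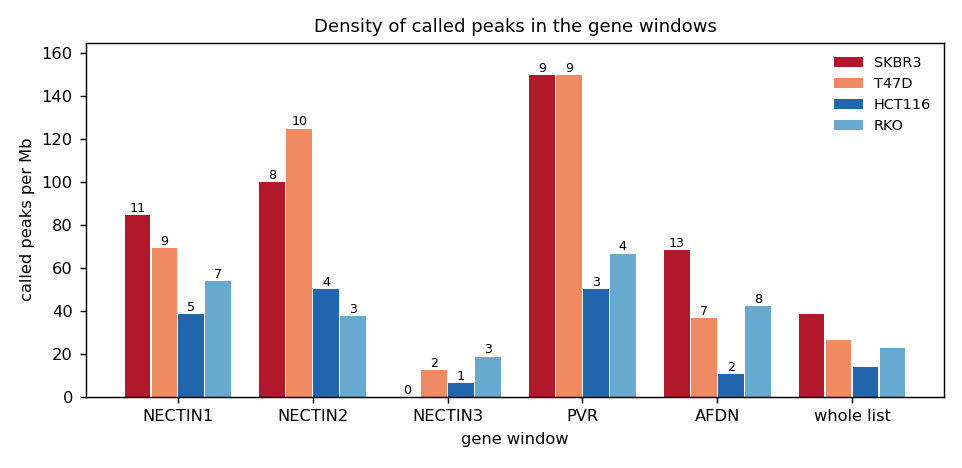
Called peaks per Mb in each gene window and in the whole list (right), by line, with the number of peaks above each bar of a gene. PVR had the densest window in all lines but HCT116, where NECTIN2 equalled it, and NECTIN3 had no SKBR3 peak.

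With every deposited call counted, the pattern over the lines was close to that of the genome. In the windows 8 of 61 regions (13.1%) were called in all 4 lines, against 11.8% of all merged regions. Regions called in both breast lines and neither colorectal line were also 8 (13.1%), against 12.4% of all regions. Among stronger calls this share lay further from that of the genome. It was 27.6% (8 of 29) against 15.9% with a -log10 q of at least 10. The 8 regions at this cut were not the same 8 as above. They included AFDN 168250581 to 168250883, NECTIN1 119600631 to 119600970 and NECTIN2 45409755 to 45409993, where HCT116 or RKO calls fell below the cut. With the lists cut to equal length by q the share was 16.2% (6 of 37) against 7.96%. The reverse, both colorectal lines and neither breast line, was found once (1.64%), against 1.61% of all regions. A single line accounted for 32 regions (52.5%), against 60.0% of all regions. SKBR3 alone called 16 of the 61 regions, T47D alone 9, HCT116 alone 0 and RKO alone 7. Of all merged regions these lines alone called 30.5%, 11.5%, 3.18% and 14.8%. Near the gene starts 5 of 14 regions were called in all 4 lines and none in the breast pair alone, while elsewhere 3 of 47 were called in all 4 lines and 8 in the breast pair alone. No share of start regions over all genes was computed to set beside these counts, and the difference was not tested.

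**Figure D2:**
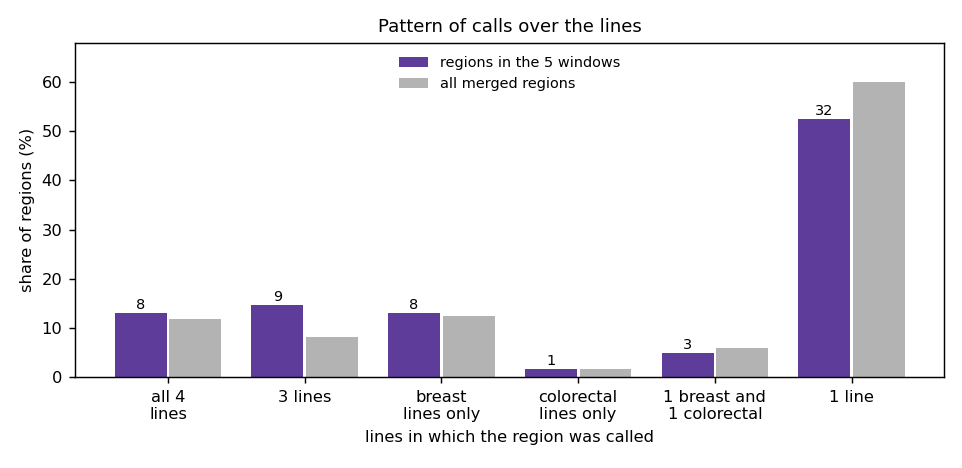
Share of regions by the lines in which they were called, for the 61 regions of the 5 windows (purple, with counts) and for all 167619 merged regions (grey). Breast-only and colorectal-only regions made up 13.1% and 1.64% in the windows, close to their shares among all regions when every deposited call is counted.

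The median percentile over peaks was 48.8 for regions of a single line, 74.8 for regions called in 2 lines, 55.4 for regions called in 3 and 86.5 for the 8 regions shared by all lines. It thus did not climb evenly with the number of lines. Over the whole series these medians were 28.8, 45.2, 51.1 and 78.3. In the highest 10% of their own list by pileup lay 16 of the 118 member peaks, against 9.86% of all peaks. SKBR3 had 7 of them, T47D 5, HCT116 1 and RKO 3.

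**Figure D3:**
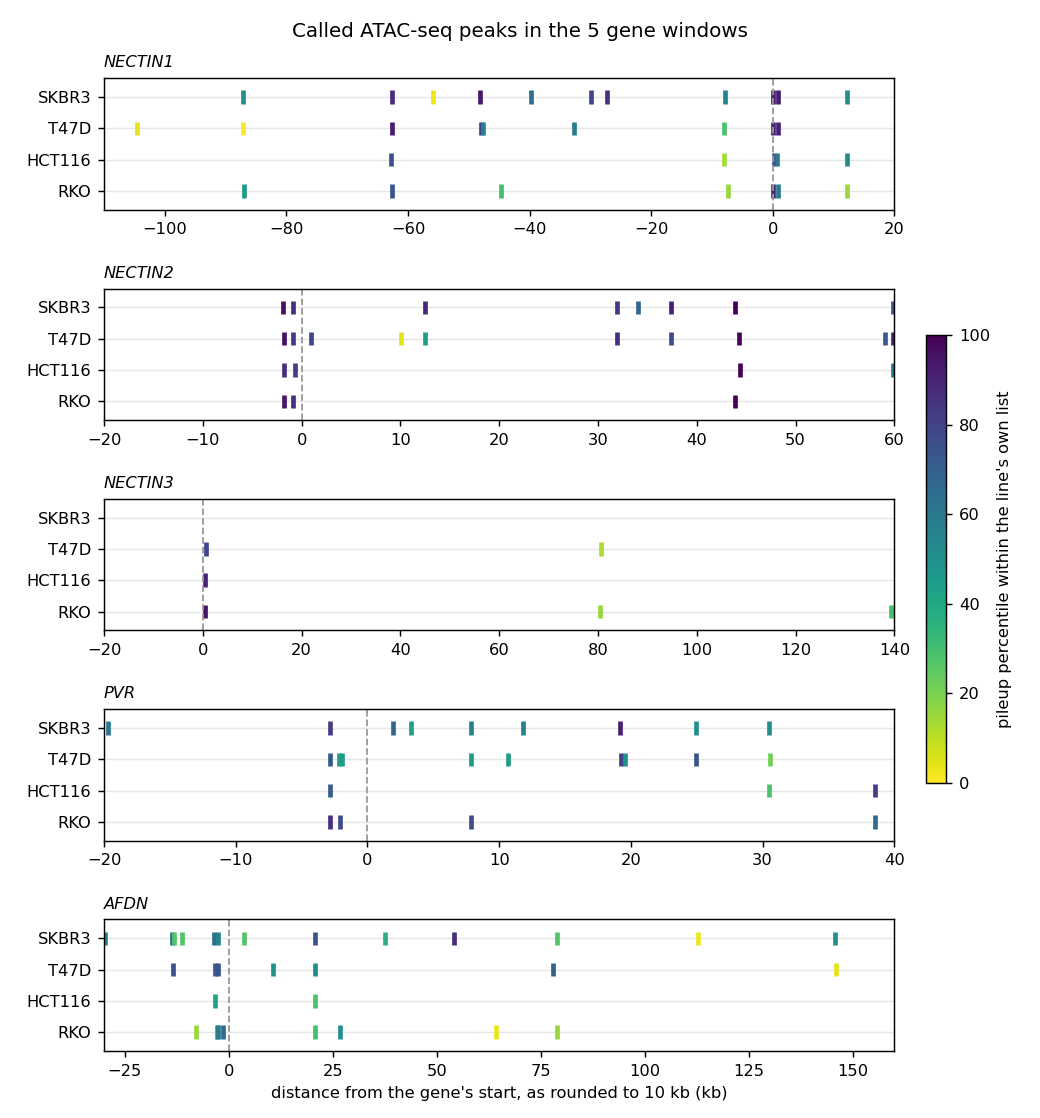
Position of every called peak in the 5 windows, as distance in kb from the gene's start rounded to 10 kb (dashed line), with 1 row for each line. Colour gives the pileup percentile within the line's own list, from 0 (yellow) to 100 (dark). The NECTIN3 row of SKBR3 is empty, and regions called in SKBR3 and T47D alone lie away from the starts.

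NECTIN3 encodes a nectin that pairs preferentially with nectin-1 across cell contacts, and its start region was called in every line but SKBR3. The region at chromosome 3, 110790150 to 110790761, had no call in SKBR3, whereas T47D had a pileup of 26 there, HCT116 of 16 and RKO of 36, at percentiles 78.3, 89.9 and 95.1. With lists of equal length these percentiles were 58.2, 89.9 and 91.9. Its fold enrichment was 14.9 in T47D, 11.2 in HCT116 and 16 in RKO, and the 3 summits lay within 34 bp of each other. SKBR3 had no peak anywhere in the 160 kb window. Of all regions called in T47D, HCT116 and RKO, 7.09% were not called in SKBR3. Among the 2260 regions that ranked at least as high as this one in each of those 3 lists, 2 (0.0885%) were not called in SKBR3: this region and another on chromosome 3, 131080354 to 131081006. That comparison was set after the values had been seen.

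The missing NECTIN3 call was set against depth. Multiplied by the ratio of tags, the pileups in T47D, HCT116 and RKO correspond to 20.6, 65.3 and 47.6 tags at the depth of the SKBR3 library. At regions called in all 4 lines the SKBR3 pileup was typically lower than so scaled, by a median factor of 0.782 from T47D, 0.490 from HCT116 and 0.756 from RKO. With these factors the values become 16.1, 32.0 and 36.0 tags, where the lowest pileup that was called in SKBR3 was 2 and the median 7. The nearest SKBR3 peaks on either side ended at 110752756 and began at 111037928, leaving 285 kb without a call, in which T47D had 2 peaks, HCT116 1 and RKO 3. Of the 6910 gaps between SKBR3 peaks on chromosome 3, 60 (0.868%) were at least this long, and the median gap was 12.2 kb. Calls were sparse there in the other lines too. Their nearest peaks outside the window lay 506 kb apart in T47D, 325 kb in HCT116 and 373 kb in RKO. Between them lay 2, 1 and 3 peaks.

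Other NECTIN3 regions were weak. T47D and RKO shared a region at 110870408 to 110870590, at percentiles 12.6 and 15.3, and RKO alone had one at 110929298 to 110929406, at percentile 29.7. The NECTIN3 promoter is printed because its start region was the one called in every line but SKBR3. This and the promoters below are RefSeq sequences of GRCh38.p14, 250 bases before to 30 after the gene's start, 5′ to 3′ on the plus strand, and were not placed on hg19. Capitals mark each match, on either strand, of 4 motifs: the AP-1 site TGANTCA that FOS and JUN proteins bind, the cyclic AMP response element TGACGTCA, the E-box CACCTG and the GC box GGGCGG, which do not share letters in these 4 promoters. The sequence lies at chr3:111071566-111071845.

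NECTIN3: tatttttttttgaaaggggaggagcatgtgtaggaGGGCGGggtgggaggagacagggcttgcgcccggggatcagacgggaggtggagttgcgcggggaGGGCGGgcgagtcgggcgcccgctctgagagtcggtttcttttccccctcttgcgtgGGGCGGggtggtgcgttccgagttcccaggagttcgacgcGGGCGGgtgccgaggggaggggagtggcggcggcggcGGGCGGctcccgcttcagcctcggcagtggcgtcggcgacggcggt

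It held 5 GC boxes and no match of the other 3 motifs. Of 35114 RefSeq promoters of this length, 44.1% held a GC box and 4.71% held 5 or more. Its GC content was 70.0%, against a median of 58.2% over all promoters, and it held 33 CpG pairs against a median of 13. An AP-1 match was found in 7.35% of all promoters and in none of the 4 member promoters matched. NECTIN1 had no entry in the table.

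The window of NECTIN2, the nectin bound by the inhibitory lymphocyte receptor PVRIG, held the highest-ranked peak of the 5 windows by pileup in every line. That region, at chromosome 19, 45393667 to 45394555, had a pileup of 66 for SKBR3, 71 for T47D, 32 for HCT116 and 54 for RKO, at percentiles 99.7, 98.3, 99.4 and 99.5. It lay 44.1 kb from the start used for NECTIN2, towards the far end of the window. The next protein-coding gene in RefSeq order is TOMM40, a subunit of the mitochondrial import channel, and to which of the 2 genes the region belongs was not determined. Leaving it aside, the highest NECTIN2 peak in each line was the region at 45347902 to 45348281 near the start. There SKBR3 had a pileup of 38, T47D of 59, HCT116 of 14 and RKO of 34. Its percentiles were 96.1, 95.9, 86.4 and 94.1, or 89.2, 92.1, 86.4 and 90.1 with lists of equal length. Its summits fell within 13 bp of each other, the closest agreement among the 8 regions called in all 4 lines.

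A neighbouring region, 45348877 to 45349709, was also called in all lines, at percentile 86.5 by SKBR3, 82.8 by T47D, 81.7 by HCT116 and 86.9 by RKO. With lists of equal length these percentiles were 62.7, 66.7, 81.7 and 78.2, the breast lines then below the colorectal lines. This region lay nearer the hand-set start than the first, and which of them holds the NECTIN2 start was not determined. The NECTIN2 promoter is printed because it alone held a cyclic AMP response element, a sequence that proteins of the ATF and CREB families bind. It lies at chr19:44846047-44846326.

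NECTIN2: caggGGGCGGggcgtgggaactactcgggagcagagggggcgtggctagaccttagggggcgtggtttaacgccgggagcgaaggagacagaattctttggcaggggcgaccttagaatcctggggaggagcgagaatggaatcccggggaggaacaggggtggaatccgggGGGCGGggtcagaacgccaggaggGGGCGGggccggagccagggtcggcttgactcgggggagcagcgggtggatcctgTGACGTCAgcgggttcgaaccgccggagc

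The element began at base 252 of the printed sequence, and 1.85% of all promoters held one. The promoter also held 3 GC boxes, and 15.0% of all promoters held 3 or more.

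Between its start and the far-end region, NECTIN2 had 3 breast-only regions of 11 (27.3%), against 12.4% of all merged regions. PVR and AFDN had 2 each, NECTIN1 1 and NECTIN3 0, and the difference was not tested. At 45362298 to 45362602 the pileup was 25 in SKBR3 and 10 in T47D, at percentiles 89.2 and 44.7. At 45381791 to 45382088 it was 20 in SKBR3 and 36 in T47D, at 84.3 and 86.2, and the peak stood 12.5 times above the local background for SKBR3 and 20.9 times for T47D. At 45387299 to 45387593 it was 27 in SKBR3 and 24 in T47D, at 90.7 and 76.1, and the 2 summits lay 2 bp apart. Neither HCT116 nor RKO had a call at these 3 regions. At RKO depth the higher of the 2 scaled pileups was 18.9, 21.5 and 20.4 tags, above the median RKO pileup of 7. The lower was 5.99, 15.1 and 14.4 tags, so for the first region the T47D value fell below that median. At HCT116 depth the higher was 6.13, 6.99 and 6.62 tags and the lower 1.94, 4.90 and 4.66 tags. The median pileup there was 6 and the lowest that was called 2. Multiplied by the median factors at regions called in all 4 lines, the higher became 12.5, 11.2 and 13.5 tags. Here and below, the HCT116 factors rest only on regions that HCT116 called. They may be too high for regions it did not call.

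Single-line calls made up 4 of the 11 NECTIN2 regions, where 60.0% of all regions had a single line. They lay between percentiles 4.21 and 78.3, and the strongest was in T47D at 45350828 to 45351067, with a pileup of 26 close to the start. A region at the far edge of the window was called in SKBR3, T47D and HCT116, with pileups of 13, 42 and 7, and its gene was not assigned either.

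NECTIN1, best known as an entry receptor of herpes simplex virus, had 15 regions, 3 of them called in all 4 lines. Next to its start lay a pair. The first, at chromosome 11, 119599846 to 119600450, had a pileup of 28 for SKBR3, 44 for T47D, 10 for HCT116 and 26 for RKO, at percentiles 91.4, 90.5, 75.2 and 88.7, or 76.1, 81.6, 75.2 and 81.1 with lists of equal length. In the second, at 119600631 to 119600970, SKBR3 had a pileup of 29, T47D of 45, HCT116 of 7 and RKO of 9, at percentiles 92.1, 91.0, 59.1 and 59.3, and the RKO peak was not among those kept in lists of equal length. The paired regions thus ranked alike within each breast line, while in both colorectal lines the second ranked lower than the first. In HCT116, the shallowest library, this rested on a pileup of 7 against 10, and in RKO on 9 against 26.

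The other region called in all 4 lines lay 62.7 kb from the start, at 119537142 to 119537523. SKBR3 had a pileup of 23, T47D of 49, HCT116 of 10 and RKO of 14, and the fold enrichment was 15.8, 23.1, 9.75 and 11.5. In T47D this was the highest-ranked peak of the 5 windows by fold enrichment, at percentile 99.3. A broad region at 119551656 to 119552485 was called in the breast lines alone, with pileups of 32 in SKBR3 and 29 in T47D, at percentiles 93.7 and 81.1. Scaled to depth, these values correspond to 24.2 and 17.4 tags in RKO and to 7.85 and 5.63 tags in HCT116, where the median factors raise them to 16 and 9.06. SKBR3 alone had 2 further calls with a -log10 q above 10, at 119569942 to 119570408 (pileup 16) and at 119572548 to 119572912 (pileup 21, percentile 85.4). T47D lacked the region at 119612099 to 119612252, which had a pileup of 7 in SKBR3, 6 in HCT116 and 3 in RKO. RKO lacked the region at 119591838 to 119592193, where the pileup was 8 for SKBR3, 7 for T47D and 3 for HCT116. HCT116 lacked the one at 119512802 to 119513056, with 7 for SKBR3, 3 for T47D and 6 for RKO. The 8 single-line regions of NECTIN1 (53.3% of its regions, against 60.0% of all merged regions) spread from percentile 2.62 to 85.4.

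**Figure D4:**
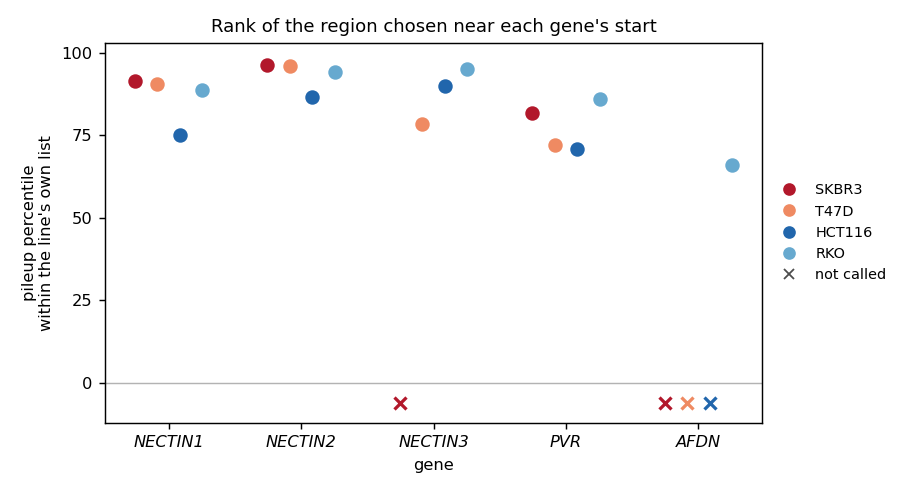
Pileup percentile within each line's own list of the region chosen near each gene's start, the one with the highest median percentile over the lines that called it. Crosses mark lines without a call. The region chosen for NECTIN2 ranked at 86.4 or higher in all lines, and that for NECTIN3 had no call in SKBR3. For AFDN the rule picked a region called in RKO alone.

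PVR, which is also the receptor used by poliovirus, had 13 regions in 60 kb, but only its start region was called in all 4 lines. At chromosome 19, 45147048 to 45147595, SKBR3 had a pileup of 18, T47D of 21, HCT116 of 9 and RKO of 23, at percentiles 81.7, 72.1, 70.8 and 85.9. With lists of equal length these percentiles were 50.2, 47.1, 70.8 and 76.6, so the breast lines then ranked below both colorectal lines. The summits lay within 24 bp of each other. In RKO a second region beside it, 45147754 to 45148166, had a pileup of 16 at percentile 77.0, and T47D had 10 there at percentile 44.7. SKBR3 and HCT116 had no call there.

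Away from the start, 2 of the 13 PVR regions were called in the breast pair alone (12.4% of all regions) and 1 in the colorectal pair alone (1.61% of all regions). The breast lines shared 45168876 to 45169416, with pileups of 27 in SKBR3 and 29 in T47D, at percentiles 90.7 and 81.1. They also shared 45174815 to 45175064, with 7 in SKBR3 and 23 in T47D, at percentiles 50.2 and 74.8. HCT116 and RKO shared 45188210 to 45188628, with pileups of 12 in HCT116 and 11 in RKO, at percentiles 81.7 and 65.9. This was the only region of the 5 windows called in both colorectal lines and in neither breast line. Scaled by tags and by the median factors at regions called in all 4 lines, its pileups correspond to 24.0 tags (from HCT116) and 11 tags (from RKO) in SKBR3, and to 38.4 and 17.9 tags in T47D, above the median pileups of 7 and 11 in these lists. It lay 38.5 kb from the start used for PVR, and the next protein-coding gene in RefSeq order is CEACAM19, so its gene was not assigned. A region at 45157687 to 45157948 was called in SKBR3, T47D and RKO, with pileups of 8, 10 and 16, and one at 45180401 to 45180597 was called in SKBR3, T47D and HCT116, with pileups of 7, 6 and 4. The 6 single-line regions of PVR (46.2% of its regions, against 60.0% of all merged regions) lay between percentiles 44.1 and 67. SKBR3 alone called 4 of the 13 PVR regions, T47D alone 2, HCT116 alone 0 and RKO alone 0. Of all merged regions these lines alone called 30.5%, 11.5%, 3.18% and 14.8%. The strongest single-line region was in SKBR3 at 45151875 to 45152030, with a pileup of 11.

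The PVR promoter is printed as a contrast to the NECTIN3 and NECTIN2 promoters, which held 5 and 3 GC boxes. It lies at chr19:44643660-44643939.

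PVR: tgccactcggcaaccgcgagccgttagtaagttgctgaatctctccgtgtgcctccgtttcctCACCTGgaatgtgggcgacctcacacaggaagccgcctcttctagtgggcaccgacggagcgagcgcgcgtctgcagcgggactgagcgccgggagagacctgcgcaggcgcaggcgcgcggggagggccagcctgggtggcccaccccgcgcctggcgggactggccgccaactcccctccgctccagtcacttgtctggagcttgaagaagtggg

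It held no GC box, a sequence that 44.1% of all promoters held, and 1 E-box, at base 64. An E-box of these letters was found in 19.2% of all promoters. Its GC content of 67.9% equalled that of the NECTIN2 promoter.

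AFDN, the only intracellular protein of the 5, had the most regions (19), but its highest peaks ranked low by pileup among the 5 genes. In T47D, HCT116 and RKO its highest peak ranked below the highest peak of each other gene, at percentiles 74.8, 41 and 65.9. In SKBR3 it reached 87.5, below the 3 other genes called there, although by fold enrichment it stood second in that line. The median percentile over AFDN peaks was the lowest of the called genes in SKBR3 (50.2) and HCT116 (34.9). In T47D (68.9) it was below only that of NECTIN2 (80.5), and in RKO (34.1) it was above that of NECTIN3 (29.7) only. Calls of a single line made up 13 of the 19 regions (68.4%), against 60.0% of all merged regions. SKBR3 alone called 7 of the 19 regions, T47D alone 2, HCT116 alone 0 and RKO alone 4. Of all merged regions these lines alone called 30.5%, 11.5%, 3.18% and 14.8%. HCT116 had 2 calls in 190 kb.

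Near the AFDN start no single region was called in all 4 lines. At chromosome 6, 168226442 to 168226692, the pileup was 10 in SKBR3, 21 in T47D and 5 in HCT116, with no call in RKO. At 168227114 to 168227512 it was 8 in SKBR3, 22 in T47D and 9 in RKO, with no call in HCT116. RKO alone had another, 168228354 to 168228660, with a pileup of 11 at percentile 65.9 (44.5 with lists of equal length), and SKBR3 alone had 168233580 to 168233764, with a pileup of 4. Each line thus had at least 1 call near the start, and no line had all 4. The region called in all 4 lines lay 20.7 kb further on, at 168250581 to 168250883, where SKBR3 had a pileup of 14, T47D of 12, HCT116 of 4 and RKO of 4.

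By percentile the highest single-line call among the 61 regions was in AFDN, while by pileup it was the T47D call in NECTIN2. SKBR3 had a pileup of 23 at 168283880 to 168284265, at percentile 87.5 with a fold enrichment of 13.8. Scaled by tags this corresponds to 29.1 in T47D, 5.64 in HCT116 (11.5 with the median factor) and 17.4 in RKO, none of which had a call there. T47D alone had 168307645 to 168307938, with a pileup of 19 at percentile 68.9. The breast lines shared 168216241 to 168216644, with pileups of 10 in SKBR3 and 23 in T47D, at percentiles 63.7 and 74.8, and more weakly 168375709 to 168375990, with 7 in SKBR3 and 4 in T47D. SKBR3 and RKO shared 168308825 to 168309006, with 4 in SKBR3 and 3 in RKO.

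The AFDN promoter is printed for its repeated E-boxes, the letters bound by the SNAI and ZEB families, repressors that act in the epithelial-to-mesenchymal transition. It lies at chr6:167827385-167827664.

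AFDN: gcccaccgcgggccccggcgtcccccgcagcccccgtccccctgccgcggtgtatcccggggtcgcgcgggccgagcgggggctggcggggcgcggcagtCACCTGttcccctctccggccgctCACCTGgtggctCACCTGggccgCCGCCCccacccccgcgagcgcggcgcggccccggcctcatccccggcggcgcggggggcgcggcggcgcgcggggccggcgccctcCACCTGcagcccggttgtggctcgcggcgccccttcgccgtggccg

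It held 4 E-boxes, at bases 101, 125, 137 and 235, where 0.142% of all promoters held 4 or more. A GC box on the other strand was its only other match. Its GC content was 84.6%. Whether any factor binds these letters in the 4 lines was not measured.

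Ordered by the highest peak in their windows, the genes ran NECTIN2, NECTIN1, PVR and AFDN in SKBR3, and NECTIN2, NECTIN1, PVR, NECTIN3 and AFDN in T47D. In HCT116 the order was NECTIN2, NECTIN3, PVR, NECTIN1 and AFDN, and in RKO it was NECTIN2, NECTIN3, NECTIN1, PVR and AFDN. The first place of NECTIN2 rested on the far-end region, which was not assigned to a gene. Without it, NECTIN2 stayed first in SKBR3 (percentile 96.1) and T47D (95.9). In HCT116 the NECTIN3 start region then ranked above NECTIN2, at 89.9 against 86.4, and in RKO likewise, at 95.1 against 94.1. The order also depended on the measure. By fold enrichment NECTIN1 came first in SKBR3 (percentile 96.7) and T47D (99.3), NECTIN2 in HCT116 (89.8) and NECTIN3 in RKO (96.8). The NECTIN2 peak in HCT116 was again the far-end region.

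A missing call says least in HCT116, the shallowest library. Of the 61 regions, 46 were not called there. Scaled by tags from the line where it was highest, the pileup of 21 of these 46 fell below 2, the lowest that was called in HCT116. Below the lowest pileup in their own list fell 0 of 20 regions not called in SKBR3, 2 of 26 in T47D and 2 of 37 in RKO. These lowest pileups are minima of whole lists, and a higher local background raises the pileup needed for a call. At called member peaks that background ran from 0.999 (NECTIN1) to 49.0 (NECTIN2) times the genome average in HCT116. In RKO it ran from 0.999 (AFDN) to 31.85 (NECTIN2) times. HCT116 pileups at regions called in all 4 lines were higher than pileups scaled by tags. The median factor was 2.04 from SKBR3, 1.61 from T47D and 1.54 from RKO, and with these factors 14 of the 46 fell below 2. The factors rest only on regions that HCT116 called, so they may be too high for the 46 it did not call.

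**Figure D5:**
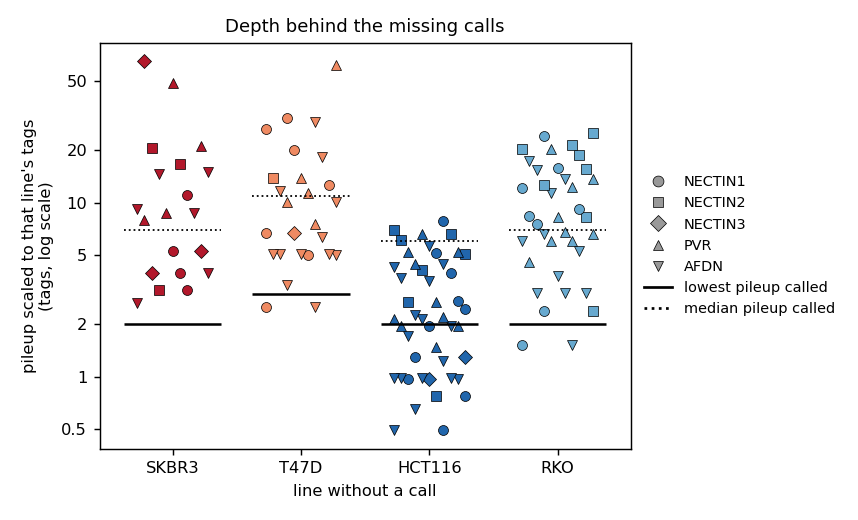
For each region not called in a line, the highest pileup of the other lines multiplied by the ratio of tags (log scale), by line without a call and with a symbol for each gene. Solid lines give the lowest and dotted lines the median pileup called in that line. In HCT116 21 of 46 points lie below the solid line, and the highest point in SKBR3 (65.3 tags) is the NECTIN3 start region.

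Partners of the nectins were read in windows set by hand, by calls alone. Of the adherens junction genes, E-cadherin (CDH1) had 3 peaks for SKBR3, 13 for T47D, 6 for HCT116 and 5 for RKO. Its highest percentile was 59.9 in SKBR3, below the 92.7, 86.4 and 87.8 of the other lines. In SKBR3 the alpha-catenin gene CTNNA1 had 12 peaks (highest percentile 89.2), beta-catenin CTNNB1 2 (81.7) and p120-catenin CTNND1 9 (93.2), and each of these 3 genes had at least 1 region called in all 4 lines. NECTIN4, the target of the series, had 7 peaks for SKBR3, 8 for T47D, 2 for HCT116 and 3 for RKO, with highest percentiles of 99.4, 97.5, 89.9 and 62.8. Among the lymphocyte receptors of PVR and nectin-2, CD226 had 1 peak for SKBR3, 0 for T47D, 1 for HCT116 and 2 for RKO, none above percentile 51.1. TIGIT had 1 peak in each line, the highest at percentile 65.5 in HCT116, and CD96 had 9 for SKBR3, 6 for T47D, 3 for HCT116 and 3 for RKO, none above 74.8. PVRIG reached percentile 93.2 with SKBR3, 74.8 with T47D, 86.4 with HCT116 and 84.9 with RKO.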

How the data were processed

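ATAC-seq libraries of SKBR3, T47D, HCT116 and RKO, 1 each, were analysed from the deposited peak lists, 1 per library. The submitters' processing notes name Bowtie2 2.4.1, MACS3 3.0.0b3 and the build hg19. Per the file headers, the authors called peaks in single-end mode without a control, at a q cutoff of 0.1, with 1 tag kept per position and tags extended to a modelled 105 to 117 bp. No shift to the transposase cut site is named there. The T47D list's header names its input T45D. The pileup signal, the fold enrichment ratio and the −log10 p-values and q-values are the authors' deposited values.

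Peaks on chromosomes 1 to 22 and X were merged at an overlap of 1 bp, with Python 3.11.15 and pandas 2.3.3. The code was tested on simulated data. Members, windows, lists and named regions were chosen with earlier results of these data known. Named were each gene's start region, regions called in all 4 lines and the strongest of 1 tissue or 1 line, besides a few chosen after their values were seen. Alternatives were a −log10 q of at least 10, lists of equal length, other overlaps, windows and merging, and other rank measures.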

Additional observations from a re-analysis of the deposited data

How the results depend on the processing

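With a −log10 q of at least 10 the peaks in the 5 windows numbered 17 for SKBR3, 24 for T47D, 5 for HCT116 and 9 for RKO, the merged regions 29, those called in all 4 lines 3 and those of 1 line 13. With every list shortened to 39899 peaks, SKBR3 had 19, T47D 24 and RKO 14, the regions numbered 37 and those of 1 line 18, so T47D and not SKBR3 then had the most calls. Both alternatives keep fewer peaks by construction. Ranked by fold enrichment, the NECTIN2 window held the highest peak in 1 of 4 lines, and by −log10 q in 3. The NECTIN3 start region was called in 3 lines, and the breast-only regions numbered 6 to 12, under the 6 alternatives that change calls. Breast-only regions made up 13.1% of the members' regions against 12.4% of all, 27.6% against 15.9% with a −log10 q of at least 10, and 16.2% against 7.96% with lists of equal length. At the q cut some of them had weaker colorectal calls in the full lists, which the cut removed. An overlap of 50%, membership by overlap, windows widened by 20 kb and merging across 200 bp each moved 0 of 11 counts by over 1.5 times. Depth limits HCT116 most. No paired analysis was possible because each line has 1 library, and no library could be left out within a line.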
